A study of Mus musculus with 2 samples.

Results

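Genes of the Cyp1 and Cyp2 families and their shared electron donor were described in the livers of newborn mice. The set was chosen by name and holds 10 genes, of 43346 genes listed. It consists of 9 cytochromes P450 (Cyp1a2, Cyp2a5, Cyp2c29, Cyp2d9, Cyp2d10, Cyp2d22, Cyp2d26, Cyp2e1 and Cyp2f2) and Por. All 10 were found in the tables of both libraries. The 2 libraries form 1 group: B6NCrl mice at postnatal day 0, with 1 liver each from pup 1 (replicate 1) and pup 3 (replicate 2). Each library was made by a SmartSeq protocol, which amplifies cDNA by PCR, from 13 pg of liver tissue RNA longer than 200 nt, given as 1 cell-equivalent. Endogenous expected counts totalled 54817565 in pup 1 and 34792898 in pup 3. Both pups carry the same donor entry in the labels, so whether the spread between the libraries is between animals or technical cannot be told apart. No genotype, treatment or age differs between the libraries, so levels and their spread are given without a test (mean ± SD, n = 2).

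Cytochromes P450 of these families are heme enzymes of the endoplasmic reticulum that add oxygen to drugs, toxins, steroids and fatty acids. They take their electrons from NADPH through P450 oxidoreductase, the product of Por, with cytochrome b5 as a second donor for some reactions. In adult mouse liver they are abundant and zoned, with Cyp2e1, Cyp1a2, Cyp2a5 and Cyp2c29 known from hepatocytes near the central vein and Cyp2f2 from those near the portal vein. Many of them are known to be switched on around or after birth.

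The set was sharply divided in the newborn liver. Cyp2e1, the Cyp2d genes and Por were well expressed, Cyp2f2 was found in 1 liver, and Cyp1a2, Cyp2a5 and Cyp2c29 were at or near 0. At a threshold of 1 TPM (transcripts per 1000000 transcripts, after removal of spike-ins), 6 of the 10 genes were detected in both livers, 1 in pup 1 alone and 3 in neither. Of all 43346 genes listed, 3555 were detected in both. Of the 7 genes of the set detected in either liver, 6 were detected in both, against 46.3% of all genes detected in either. Together the 10 genes held 0.275% of endogenous TPM in pup 1 and 0.167% in pup 3 (0.221 ± 0.0765%). In bulk RNA, fewer hepatocytes and less RNA per hepatocyte cannot be told apart. Hepatocyte markers were present in both livers (7 of 7, summing to 110507 TPM in pup 1 against 89800 TPM in pup 3). Trf alone gave 64244 TPM of this in pup 1, against 42243 TPM in pup 3. Alb and Ttr were lower in pup 1 and the other hepatocyte markers higher. Erythroid markers were also present (4 of 4, summing to 55305 TPM in pup 1 against 69891 TPM in pup 3). Alas2 was higher in pup 1 and the other erythroid markers lower. No marker of these 2 lists differed 2-fold between the livers. None of the 3 lung epithelial markers and none of the 4 kidney tubule markers had a count in either library. Of the 4 intestinal enterocyte markers, Fabp2 was detected in both livers and Lgals4 in pup 1 alone, with values given further below.

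**Figure D1:**
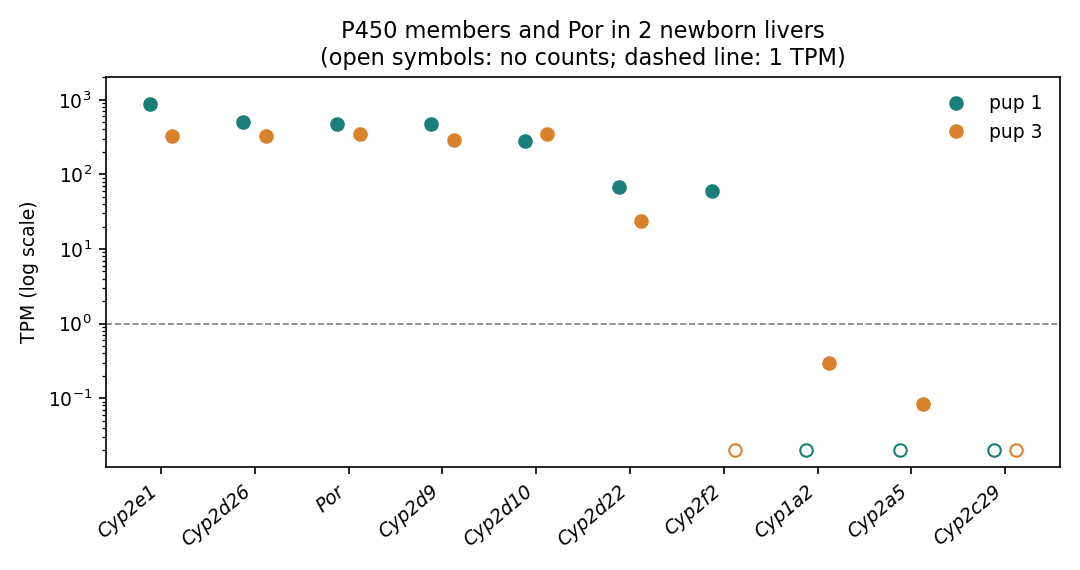
Level of each gene in TPM on a log axis, with 1 point for pup 1 and 1 for pup 3. Filled points for Cyp2e1, Cyp2d26, Por, Cyp2d9 and Cyp2d10 lie between 283 and 886 TPM, and open points at the bottom mark genes with no counts.

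Cyp2e1, which oxidises ethanol, acetone and paracetamol, had the highest mean level of the set. It stood at 886 TPM in pup 1, from 63900 expected counts, and at 328 TPM in pup 3, from 16252 expected counts (607 ± 394 TPM). Its level was thus 2.70-fold higher in pup 1, where it ranked 121 among all endogenous features, against rank 403 in pup 3. It made up 32.2% of the summed TPM of the 10 genes in pup 1 and 19.7% in pup 3. In pup 3 it was level with Cyp2d26 (330 TPM), Cyp2d10 (348 TPM) and Por (351 TPM). Cyp2e1 lies on chromosome 7 (140763739 to 140774987, plus strand, in GRCm38, the assembly also named mm10). The tables list 1 transcript for it.

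Por had one of the smaller relative spreads. It stood at 473 TPM in pup 1, against 351 TPM in pup 3 (412 ± 86.3 TPM). This rested on 48987 expected counts in pup 1 and on 24876 in pup 3. The 9 P450 genes summed to 4.81 TPM per TPM of Por in pup 1 and 3.75 in pup 3. The gene lies on chromosome 5 (135670033 to 135735326, plus strand), and the tables list 9 transcripts for it. Por-201, a protein-coding transcript of 16 exons, took 89.97% of the gene's TPM in pup 1 and 95.71% in pup 3 (92.8 ± 4.06%). Por-202, a protein-coding transcript of 15 exons, took 7.21% in pup 1 and 1.2% in pup 3. Por-206, a transcript with a retained intron, took 0.14% in pup 1 and 3.06% in pup 3. By expected counts rather than TPM, Por-206 held 0.0334% in pup 1 and 0.710% in pup 3, since TPM is per length and this transcript is short (673 nt). A single transcript therefore carried most Por reads in both livers, and the minor ones differed between the livers.

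The 4 Cyp2d genes lie on chromosome 15 and summed to 1330 TPM in pup 1, against 987 TPM in pup 3, more than Cyp2e1 in each liver. Cyp2d26 (82790101 to 82794294, minus strand) stood at 499 TPM in pup 1, against 330 TPM in pup 3 (415 ± 120 TPM). Cyp2d9, a steroid hydroxylase that is more abundant in adult males (82433437 to 82456845, plus strand), stood at 479 TPM in pup 1, against 285 TPM in pup 3 (382 ± 137 TPM). Cyp2d10 (82402846 to 82407195, minus strand) went the other way, with 283 TPM in pup 1, against 348 TPM in pup 3 (315 ± 45.7 TPM). Cyp2d22 (82370527 to 82380260, minus strand) was the lowest, with 68.4 TPM in pup 1, against 23.9 TPM in pup 3 (46.2 ± 31.4 TPM). Of the summed TPM of the 4 genes, Cyp2d10 took 21.3% in pup 1 and 35.2% in pup 3. Cyp2d26 took 37.6% of it in pup 1 against 33.5% in pup 3, and Cyp2d9 took 36.0% in pup 1 against 28.9% in pup 3. Cyp2d26 thus led in pup 1 and Cyp2d10 in pup 3.

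Ordered by mean level, the genes ran Cyp2e1, Cyp2d26, Por, Cyp2d9, Cyp2d10, Cyp2d22, Cyp2f2, Cyp1a2, Cyp2a5 and Cyp2c29. The values of neighbours in this order overlapped between the 2 livers everywhere except between Cyp2d10 and Cyp2d22. The order within the first 5 is therefore not set apart by the spread, whereas the step from Cyp2d10 down to Cyp2d22 is larger than it.

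Cyp2f2, known for activating naphthalene in the lung and also expressed by hepatocytes, was counted in 1 liver. It had 4411 expected counts and 59.8 TPM in pup 1, and 0 counts in pup 3. Against a floor of 3 counts in pup 3, its reads were at least 933-fold higher in pup 1 in CPM (counts per 1000000 endogenous counts). This bound covers counting error of reads only. It sets no bound on the difference in RNA molecules, since PCR copies are not independent molecules. All of these counts were given to its transcript of 1866 nt. Cyp2f2 lies on chromosome 7 (27119909 to 27133660, plus strand), and the antisense gene Gm15883, which overlaps it, had 0 counts in both libraries. The lung epithelial markers Scgb1a1, Scgb3a2 and Sftpc had 0 counts in both libraries as well. At mean levels of 10 to 100 TPM, where Cyp2f2 falls, 75.4% of all genes differed at least 2-fold between the livers.

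Cyp1a2, which metabolises caffeine and aromatic amines, had 0 expected counts in pup 1, against 15 in pup 3 (0.297 TPM). Against the floor of 3 counts in pup 1 its reads were at least 7.88-fold lower there as CPM, again for counting error only. It stayed under 1 TPM in both livers. Cyp2a5, the coumarin hydroxylase, had 0 expected counts in pup 1, against 1.06 in pup 3. Cyp2c29, known as inducible by phenobarbital, had 0 in both. A count of 0 allows up to 0.0547 CPM in pup 1 and 0.0862 CPM in pup 3, for counting error of reads only. It sets no bound on RNA molecules, since PCR copies without molecular identifiers are not independent molecules. Cyp1a2 lies on chromosome 9 (57676937 to 57683703, minus strand), Cyp2a5 on chromosome 7 (26835305 to 26843548, plus strand) and Cyp2c29 on chromosome 19 (39269405 to 39330713, plus strand).

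The genes on either side of the detection threshold were compared at the level of their promoters, because 5 of the abundant genes and all 3 of the genes near 0 have an entry in the RefSeq table. The 250 bases before the RefSeq start were available for 9 of the 10 genes (GRCm38.p6), all but Cyp2d22. The sequences of 6 are given 5′ to 3′, namely the gene of highest mean level, the most alike pair of Cyp2d genes, 2 genes near 0 and Por. Capitals mark TATAA and GGGCGG on either strand, where overlapping matches run together.

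Cyp2e1 (chr7:140763569-140763818, plus strand): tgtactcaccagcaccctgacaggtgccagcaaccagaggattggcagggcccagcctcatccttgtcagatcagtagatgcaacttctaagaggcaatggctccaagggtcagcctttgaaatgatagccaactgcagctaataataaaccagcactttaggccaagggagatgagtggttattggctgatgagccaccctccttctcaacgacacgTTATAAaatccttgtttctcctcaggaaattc
Cyp2d9 (chr15:82452127-82452376, plus strand): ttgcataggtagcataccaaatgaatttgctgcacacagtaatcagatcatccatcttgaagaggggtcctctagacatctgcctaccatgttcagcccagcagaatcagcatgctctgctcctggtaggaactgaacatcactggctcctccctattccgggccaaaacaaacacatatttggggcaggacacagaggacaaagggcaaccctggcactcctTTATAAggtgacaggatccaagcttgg
Cyp2d10 (chr15:82407195-82407444, minus strand): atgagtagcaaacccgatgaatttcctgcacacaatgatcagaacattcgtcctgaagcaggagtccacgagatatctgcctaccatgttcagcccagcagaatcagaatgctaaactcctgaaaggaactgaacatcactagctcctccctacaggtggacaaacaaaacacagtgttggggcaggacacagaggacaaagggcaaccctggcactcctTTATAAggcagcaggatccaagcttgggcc
Cyp1a2 (chr9:57683656-57683905, minus strand): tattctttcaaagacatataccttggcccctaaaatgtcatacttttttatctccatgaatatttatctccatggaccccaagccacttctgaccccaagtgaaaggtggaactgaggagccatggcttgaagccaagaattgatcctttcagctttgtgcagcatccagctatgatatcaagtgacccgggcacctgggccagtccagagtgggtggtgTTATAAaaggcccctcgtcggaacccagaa
Cyp2c29 (chr19:39286835-39287084, plus strand): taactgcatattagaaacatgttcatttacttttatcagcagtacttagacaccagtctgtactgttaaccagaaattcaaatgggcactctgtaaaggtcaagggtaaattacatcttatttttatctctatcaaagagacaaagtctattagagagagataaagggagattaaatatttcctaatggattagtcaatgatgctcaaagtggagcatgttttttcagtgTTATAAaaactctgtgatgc
Por (chr5:135688895-135689144, plus strand): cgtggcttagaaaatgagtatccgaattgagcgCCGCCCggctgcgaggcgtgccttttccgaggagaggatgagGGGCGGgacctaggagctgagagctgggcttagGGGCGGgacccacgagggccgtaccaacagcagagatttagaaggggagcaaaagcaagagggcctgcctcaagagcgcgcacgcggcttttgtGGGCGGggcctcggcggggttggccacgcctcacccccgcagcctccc

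The letters TATAA occurred on either strand in the 250 bases of 7 of the 9 genes, against 22.8% of all 32851 promoters in the table. In the same 7 genes they lay on the coding strand 15 to 40 bases before the start, against 3.79% of all promoters. Those 7 were Cyp2e1 (31 bases before the start), Cyp2d9 (26), Cyp2d10 (29), Cyp2d26 (29), Cyp1a2 (29), Cyp2a5 (29) and Cyp2c29 (19). They thus include abundant genes and all 3 genes near 0, and Cyp2f2 and Por had no match. Por instead held 4 matches to the GC box GGGCGG, found in 32.7% of all promoters and in none of the other 8. The bases G and C made up 65.6% of the Por promoter, 32.8% of that of Cyp2c29 and 46.4 to 51.6% of the other 7, with a median of 52.4% over all promoters.

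Letters known from liver factors were searched in the same windows of the 9 genes. The HNF4 core AAAGTCC, present in 3.58% of all promoters, was found for 1 of the 9, Cyp2a5, as was the C/EBP motif TTGCNNAA, present in 9.56%. The HNF1 motif GTTAAT, present in 6.43%, was found for 2 of the 9, Cyp2a5 and Cyp2d26. The core GCGTG of the aryl hydrocarbon receptor site, present in 28.2%, was found for 1 of the 9, Por. Each was searched on both strands, and a match describes letters and not binding. The Cyp2d9 and Cyp2d10 promoters were identical at 82.3% of aligned positions, against 50.5% for Cyp2d9 and Cyp2d26.

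How far the values could be told apart between near copies was examined next, since the tables divide reads of several origins by estimation. The coding sequence of Cyp2a5 was 98.5% identical to that of Cyp2a4, a steroid hydroxylase gene outside the set. Cyp2d9 was closest to Cyp2d11 (93.3%) and Cyp2d10 (92.5%), and Cyp2d10 was closest to Cyp2d11 (94.7%). Cyp2d12 was 92.1% identical to Cyp2d9 and 91.2% to Cyp2d10. Cyp2d34 was 89.6% identical to Cyp2d9 and 90.6% to Cyp2d10. Cyp2d26 was 81.5% identical to Cyp2d11, and Cyp2d22 reached 78.9% at most. Cyp2c29 was closest to Cyp2c39 (89.5%) and Cyp2c38 (89.1%), both of which had 0 counts. It was 83.0% identical to Cyp2c37, which was counted in both livers, 82.6% to Cyp2c50 and 82.1% to Cyp2c54. The closest family member of Cyp2e1 was 64.0% identical to it, that of Cyp2f2 61.6% and that of Cyp1a2 75.6%.

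The letters that separate near copies are shown around the cysteine that holds the heme. For 6 genes, 93 coding bases centred on its codon are given, with capitals marking bases that differ from Cyp2d9 for the Cyp2d genes and from Cyp2a5 for Cyp2a4. They run from coding base 1291 to 1383 in the Cyp2d genes and from 1270 to 1362 in the Cyp2a genes, counted from the A of the start codon.

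Cyp2d9: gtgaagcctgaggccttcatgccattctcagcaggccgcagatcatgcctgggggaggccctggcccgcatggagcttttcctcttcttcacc
Cyp2d10: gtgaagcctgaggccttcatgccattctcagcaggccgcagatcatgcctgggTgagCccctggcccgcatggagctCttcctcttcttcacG
Cyp2d26: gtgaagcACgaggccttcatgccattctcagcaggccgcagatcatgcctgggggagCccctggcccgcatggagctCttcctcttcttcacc
Cyp2d22: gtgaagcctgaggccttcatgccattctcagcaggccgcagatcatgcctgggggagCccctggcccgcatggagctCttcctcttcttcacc
Cyp2a5: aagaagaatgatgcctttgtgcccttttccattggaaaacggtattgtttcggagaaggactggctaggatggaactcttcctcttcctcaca
Cyp2a4: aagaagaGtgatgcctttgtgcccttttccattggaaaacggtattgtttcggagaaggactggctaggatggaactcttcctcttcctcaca

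In this stretch Cyp2d10 and Cyp2d26 each differed from Cyp2d9 at 4 bases and Cyp2d22 at 2, while Cyp2a4 differed from Cyp2a5 at 1. Over whole transcripts, the share of 100-nt windows also present in a transcript of another gene was 14.8% for Cyp2d10, 14.4% for Cyp2a5 and 9.86% for Cyp2d9. It was 2.06% for Cyp1a2, 1.50% for Cyp2e1, 0.375% for Cyp2d26 and 0.225% for Cyp2d22, and no window was shared for Cyp2f2, Cyp2c29 or Por. The length of 100 nt was taken because listed effective lengths are 99 nt below transcript lengths. The largest partner of Cyp2d10 was Cyp2d11 (165 windows), which was given 13.8 expected counts in pup 1, against 16.6 in pup 3. Cyp2a5 shared 183 windows with Cyp2a4, which was given 0 expected counts in pup 1, against 2222 in pup 3 (47.9 TPM). The division between Cyp2a5 and Cyp2a4, and among Cyp2d9, Cyp2d10 and Cyp2d11, is therefore uncertain for reads from shared windows. Windows found in no other gene made up 85.6% for Cyp2a5, 90.1% for Cyp2d9 and 85.2% for Cyp2d10. In pup 1 both Cyp2a5 and Cyp2a4 had 0 counts, so nothing was divided between them there. Cyp2e1, Cyp2d22, Cyp2d26, Cyp2f2, Cyp2c29 and Por rest on sequence that is nearly all their own.

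**Figure D2:**
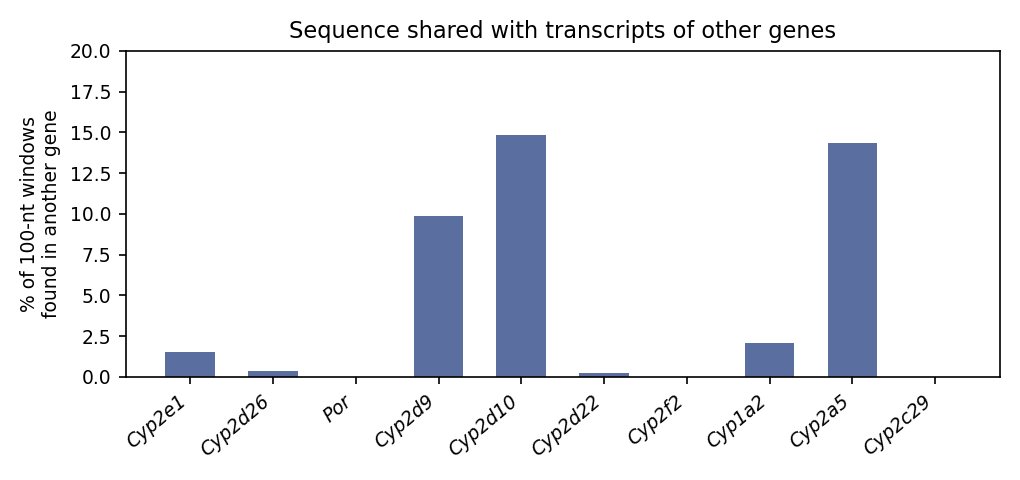
Share of 100-nt windows of each gene's longest coding transcript that also occur in a transcript of another gene, in percent. Cyp2d10, Cyp2a5 and Cyp2d9 lie between 9.86 and 14.8%, and the other genes at 2.06% or less.

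Annotated genes overlapping the set added no counts. Of 9 such genes, lying over 5 of the 10, 5 are listed in the tables and had 0 counts in both libraries. The other 4 are not listed there.

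The spread between the livers was set against that of all genes. A difference of at least 2-fold on log2(TPM + 1) was found for 67.6% of 8120 genes, those whose expected counts averaged 10 or more. Of the 10 genes, 7 passed this filter, and 3 differed that much, all higher in pup 1. These were Cyp2f2, Cyp2d22 (log2 difference 1.48, pup 1 minus pup 3) and Cyp2e1 (1.43). Cyp2d9 (0.75), Cyp2d26 (0.59) and Por (0.43) were higher in pup 1 by less, and Cyp2d10 (-0.30) was lower. At mean levels of 100 to 1000 TPM, 35.0% of 993 genes differed at least 2-fold, as did 1 of the 5 genes of the set in that range, Cyp2e1. The median size of the log2 difference was 0.59 for those 5 genes, against 0.68 for all genes in that range. With the library scaling factors of edgeR (TMM) or DESeq2, the log2 differences of the 6 genes counted in both livers moved up by about 0.26, and Cyp2d9 also reached 2-fold (log2 difference 1.01 with each), giving 4 genes in all. Scaling by spike-in totals moved them down by about 0.25 and left the count at 3. Cyp2d10 was lower in pup 1 under each of these, though only by 0.03 to 0.04 on the log2 scale with TMM or DESeq2.

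**Figure D3:**
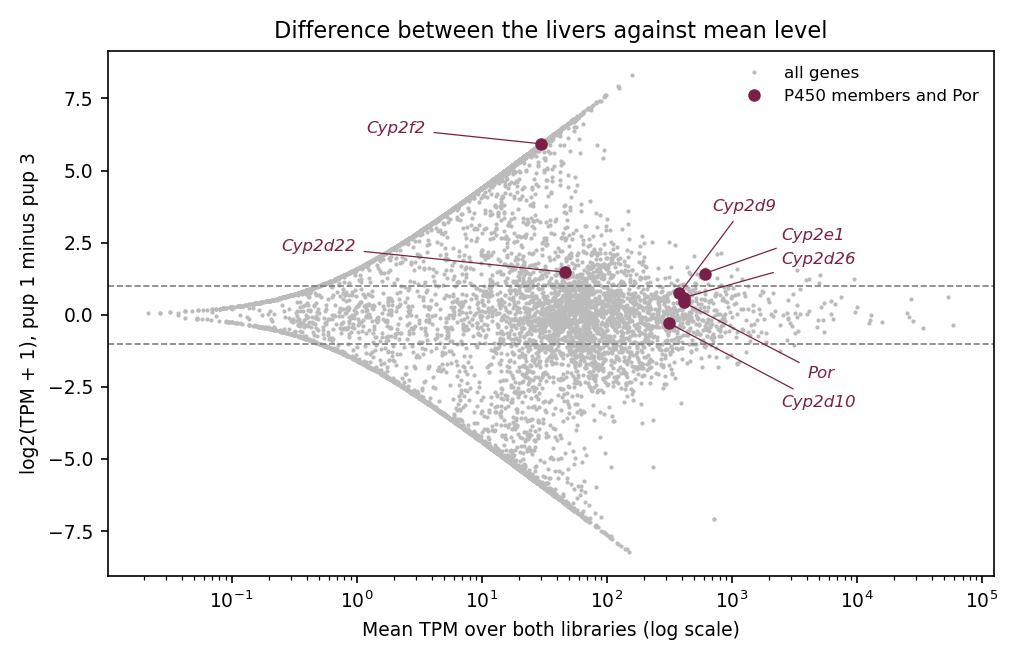
Difference between the livers (log2(TPM + 1), pup 1 minus pup 3) against mean TPM on a log axis for the 8120 genes tested, with the 7 tested genes of the set named. Dashed lines mark 2-fold, and Cyp2e1, Cyp2d22 and Cyp2f2 lie above the upper one.

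The authors' own credibility intervals, whose level the sources used here do not state, were narrower than the gap between the livers. For the 6 genes detected in both livers their width was 1.55 to 4.48% of their midpoint in pup 1 and 3.09 to 9.16% in pup 3, widest for Cyp2d22. These intervals were made within 1 library each and hold no difference between libraries.

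Within the wider Cyp1 and Cyp2 families the set held the leading genes by mean level, but not all abundant ones. In pup 3, Cyp2c68 and Cyp2c69 stood above every P450 of the set, the highest of which was Cyp2d10 (348 TPM). Of 51 protein-coding genes of these families, 12 were detected in both livers, 3 in pup 1 alone, 2 in pup 3 alone and 34 in neither. Besides the set, these 12 comprised Cyp2a12 and 6 Cyp2c genes. Among all genes detected in either liver, 46.3% were detected in both. Cyp2c68 stood at 244 TPM in pup 1, against 359 TPM in pup 3, and Cyp2c69 at 243 TPM in pup 1, against 353 TPM in pup 3. Cyp2c40 stood at 167 TPM in pup 1, against 276 TPM in pup 3, and Cyp2c23 at 122 TPM in pup 1, against 182 TPM in pup 3. Together with Cyp2c37, at 40.4 TPM in pup 1 against 168 TPM in pup 3, these 5 were each lower in pup 1. Cyp2c70, which makes muricholic bile acids, went the other way with 177 TPM in pup 1, against 50.4 TPM in pup 3, as did Cyp2a12 with 172 TPM in pup 1, against 43.5 TPM in pup 3. Cyp2c68, Cyp2c69 and the barely counted Cyp2c67 were 96.5 to 97.7% identical in their coding sequence, and Cyp2c40 was 92.3 to 92.6% identical to them, so the split among these 4 is uncertain. While Cyp2c29 had no counts, the 15 Cyp2c genes together gave 994 TPM in pup 1, against 1389 TPM in pup 3.

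The other genes found in a single liver are outside the rule for named genes, Cyp2a4 excepted, and were picked with their values known. Cyp2b9 had 44.3 TPM in pup 1 and 0 counts in pup 3, and Cyp2s1 had 25.6 TPM in pup 1 and 0 counts in pup 3. Of the 4 intestinal enterocyte markers, 2 were at 0 in both livers, while Fabp2 had 59.0 TPM in pup 1, against 53.8 TPM in pup 3, and Lgals4 had 40.5 TPM in pup 1, against 0 counts in pup 3. These 4 markers summed to 99.5 TPM in pup 1, against 53.8 TPM in pup 3, and their part in the values of Cyp2b9, Cyp2s1 and Cyp2f2 was not tested. Cyp2a4 was described above, and Cyp2j6 had 0.0321 TPM in pup 1, against 1.55 TPM in pup 3.

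**Figure D4:**
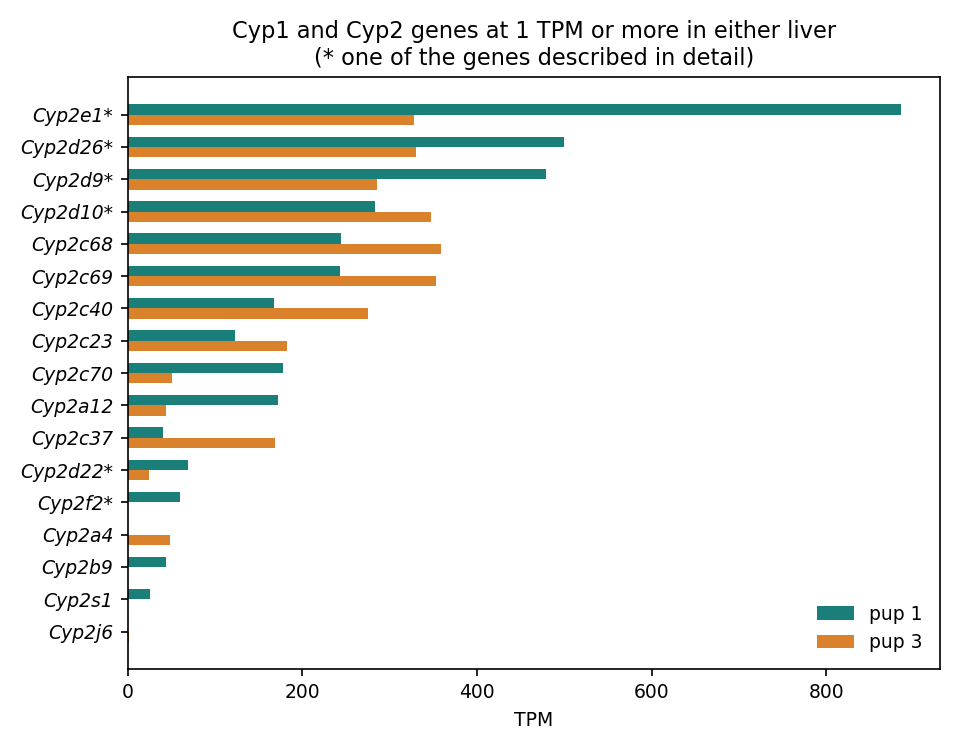
TPM in pup 1 and pup 3 of the 17 Cyp1 and Cyp2 genes that reached 1 TPM in at least 1 liver, ordered by mean level, with asterisks on genes of the set. The first 4 genes belong to the set, followed by 4 Cyp2c genes that are each higher in pup 3, and the bars of Cyp2j6 (at most 1.55 TPM) are too short to see.

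The share of the set in all Cyp1 and Cyp2 transcripts differed between the livers more than the total did. The 9 P450 genes made up 64.8% of the families' TPM in pup 1 and 47.0% in pup 3. All 51 genes summed to 3511 TPM in pup 1, against 2798 TPM in pup 3. Per TPM of Por this was 7.43 TPM in pup 1, against 7.98 TPM in pup 3. The set alone was higher per Por in pup 1, and the families as a whole were not.

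Other electron carriers were present in both livers, 5 of 5 with Por included, against 46.3% of all genes detected in either. Cyb5a, which encodes cytochrome b5, stood at 1222 TPM in pup 1, against 1396 TPM in pup 3, above Por in each. Pgrmc1, a heme protein that binds P450 enzymes, had 308 TPM in pup 1, against 285 TPM in pup 3. Of the 5, 1 differed at least 2-fold (Cyb5b, 7.64 TPM in pup 1 against 39.0 TPM in pup 3), and it is named because it is the only one. Of 10 genes that make or break down heme, 9 were detected in both livers and 1 in pup 1 alone. Among the leading ones were Blvrb (296 TPM in pup 1 against 321 TPM in pup 3) and Alad (213 TPM in pup 1 against 286 TPM in pup 3). Erythroid cells, whose markers are given above, also make heme, and their part in these levels was not tested. Of the 10, 4 were at least 2-fold higher in pup 1 and none was lower, against 34.5% and 33.1% of all genes tested.

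Most regulators of P450 genes that were detected were found in a single liver. Of 22 regulators, 4 were detected in both livers, 7 in pup 1 alone, 3 in pup 3 alone and 8 in neither, and over all genes 46.3% of those detected in either liver were detected in both. Of the 15 tested, 7 were at least 2-fold higher in pup 1 and 4 at least 2-fold lower, against 34.5% and 33.1% of all genes tested, so the count is near the background of 67.6% either way. The leading ones were the fatty acid receptor gene Ppara (29.0 TPM in pup 1 against 244 TPM in pup 3), the xenobiotic receptor gene Nr1i3 (116 TPM in pup 1 against 8.69 TPM in pup 3) and the glucocorticoid receptor gene Nr3c1 (61.5 TPM in pup 1 against 0 counts in pup 3). Ahr, the receptor that induces Cyp1a2, had 0 expected counts in pup 1, against 5 in pup 3, and Hnf4a had 3.45 TPM in pup 1, against 4.56 TPM in pup 3. These last 2 genes are not among the leading 3 and were picked with their values known.

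Hepatocyte zone genes were compared as far as bulk RNA allows. For all genes detected in either liver, the share detected in both was 46.3%. Of the 13 pericentral genes listed, 4 belong to the set, and of the other 9, 4 were detected in both livers and 5 in neither. The leading ones after Cyp2e1 were Glul (176 TPM in pup 1 against 225 TPM in pup 3) and Gulo (130 TPM in pup 1 against 45.3 TPM in pup 3). Of the 11 periportal genes, Cyp2f2 included, 8 were detected in both livers, 2 in pup 1 alone and 1 in pup 3 alone, led by Ass1, Arg1 and Pck1 (781 TPM in pup 1 against 767 TPM in pup 3). Ass1 had 2277 TPM in pup 1, against 1310 TPM in pup 3, and Arg1 had 521 TPM in pup 1, against 1690 TPM in pup 3. Pericentral genes summed to 1246 TPM in pup 1, against 718 TPM in pup 3, with Cyp2e1 giving 886 TPM of this in pup 1 against 328 TPM in pup 3. Periportal ones summed to 5047 TPM in pup 1, against 5710 TPM in pup 3.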

How the data were processed

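RNA-seq of 2 newborn mouse livers was analysed from the deposited gene and transcript tables. The authors deposited expected counts (estimated reads per feature, not all whole), TPM that sums to 1000000 with spike-ins included, FPKM, posterior mean TPM with credibility bounds (treated as a score), and each transcript's percent of its gene. Per the deposited notes, values refer to mm10 and GENCODE M4. The aligner, the quantifier and any use of strand are not stated in the sources used here. Listed feature and effective lengths, in nucleotides, were also used. FPKM was not used further.

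Total expected counts were 56959836 in pup 1 and 35973980 in pup 3, of which 3.76% in pup 1 and 3.28% in pup 3 were spike-ins. After leaving out the 97 spike-ins, TPM was scaled again to sum to 1000000. Differences are on log2(TPM + 1), pup 1 minus pup 3, for genes whose expected counts averaged 10 or more, and understate low genes. Names and coordinates came from GENCODE M21 (GRCm38), which matched 98.0% of gene identifiers by identifier without version. Coding sequences and windows came from M21 transcripts, and identity is over global alignments of coding bases, since no protein table was used here. A chi-square of the counts gave 1795 per degree of freedom, so the libraries are not one deposited again.

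The members and lists were chosen with earlier results of these data known. Named were all 10 members, family genes detected in both livers or among the 5 of highest mean, near copies (at least 80% identical in coding bases, in place of the protein identity first planned) and the 3 leading genes of each list, of which 1 is not reported here. The call of differences was tested on simulated counts for pup 1 against pup 3 over 8120 genes, with random counting (Poisson) error alone. At 30 TPM or more, 94 of 94 genes changed 4-fold were called, and 0 of 2863 unchanged genes. The real libraries spread far more, with 67.6% of genes called. The simulation therefore checks the calculation only and not how often a real call is false. Alternatives covered units, spike-ins, scaling, thresholds, pseudocounts, filters, depth and each library alone. Scaling factors of rounded expected counts came from DESeq2 1.42.0 and edgeR 4.0.16 under R 4.3.3, with no test. Alignments used Biopython 1.88, figures matplotlib 3.10.9, and the rest pandas 2.3.3 and numpy 2.4.6 under Python 3.11.15.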

Additional observations from a re-analysis of the deposited data

How the results depend on the processing

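No paired analysis was possible because the libraries form 1 group and no test was made. The summed share of the 10 genes (0.221% of TPM) was 0.311% of expected counts when length was not corrected for, and the median level of the 10 genes (165 TPM) was 222 as CPM. Both moved by more than 1 SD. Under the other units and scalings listed, both moved by less. With 1 library alone the share ran from 0.167 to 0.275%, the median level from 154 to 176 TPM, the number of genes detected from 6 to 7, and the share of Por-201 from 89.97 to 95.71%. Detection in both livers stayed at 6 of 10 genes at 0.1 TPM, at 10 TPM, at more than 3 expected counts and after thinning the deeper library. The number of genes that differed at least 2-fold ran from 2 (when 100 or more expected counts were asked of each library, which leaves out Cyp2f2) to 4 (with TMM or DESeq2 factors). Of 70 recomputed levels of single genes, 59 moved by less than 1 SD. The other 11 include levels of Cyp2c29 that stayed at 0, where the SD was 0 and the rule could not be met. By counting error of reads alone, the depth allows no statement below 0.0547 CPM in pup 1 and 0.0862 CPM in pup 3. These values set no bound on RNA molecules. A count of 0 in 1 liver also occurred for genes well counted in the other, such as Nr3c1 (61.5 TPM in pup 1 against 0 counts in pup 3).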

Other observations

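Other drug-metabolizing genes of the newborn liver were likewise detected for some members of each list only. Over all 43346 genes listed, 3555 were detected in both livers, 46.3% of those detected in either. Partial detection is therefore not particular to these lists or to those of the next paragraph. Of 7 Cyp3a genes examined, 5 were detected in both livers, led by Cyp3a11 (911 TPM in pup 1 against 564 TPM in pup 3). Cyp3a25 (70.9 TPM in pup 1 against 311 TPM in pup 3) and Cyp3a13 (138 TPM in pup 1 against 51.9 TPM in pup 3) followed. Of 9 Cyp4 genes, 3 were detected in both livers, with the fatty acid hydroxylases Cyp4a14 at 487 TPM in pup 1 against 614 TPM in pup 3 and Cyp4a10 at 303 TPM in pup 1 against 610 TPM in pup 3. Cyp4f13 had 58.8 TPM in pup 1, against 42.3 TPM in pup 3. Other enzymes that oxidise or cleave drugs were detected in both livers for 9 of 16 genes, led by Adh1 (515 TPM in pup 1 against 557 TPM in pup 3), Ephx2 (281 TPM in pup 1 against 407 TPM in pup 3) and Aldh2 (148 TPM in pup 1 against 151 TPM in pup 3).

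Conjugating enzymes were also found for some genes and not others. Of 13 UDP-glucuronosyltransferase genes, 5 were detected in both livers and 7 in neither. Ugt1a1, which conjugates bilirubin, stood at 248 TPM in pup 1 against 367 TPM in pup 3, Ugt2b34 at 30.5 TPM in pup 1 against 171 TPM in pup 3, and Ugt2b5 at 77.2 TPM in pup 1 against 42.7 TPM in pup 3. Of 10 sulfotransferase and N-acetyltransferase genes, 2 were detected in both livers, namely Sult1a1 (236 TPM in pup 1 against 385 TPM in pup 3) and Sult1d1 (61.3 TPM in pup 1 against 84.2 TPM in pup 3). Sult2a1 had 50.1 TPM in pup 1, against 0 counts in pup 3. Ugt1a transcripts share exons, so the split among those genes is uncertain.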
